A study of Rattus norvegicus with 15 samples.

Results

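Expression of the Cdk1-cyclin engine, the kinase complex that drives cells into mitosis, was described in rat hepatocytes sorted by DNA content. The set held 10 genes (Cdk1, Ccnb1, Ccnb2, Ccna2, Cdc25b, Cdc25c, Wee1, Plk1, Foxm1 and Cks2) of the 17055 features tested, and its members were found as the 16 array probes that carry these gene names. The cells came from female Wistar rats and were separated, after staining of DNA with Hoechst, into fractions of 2c, 4c and 8c, where 2c is the DNA content of a diploid cell. In 5 independent experiments each fraction was read on 1 Cy3 array, 15 arrays in all. The rats were 12 weeks old in experiment 1, 14 in experiment 2, 6 in experiment 3, 5 in experiment 4 and 6 in experiment 5. The labels name no treatment or genetic change for any group. The number of animals behind an experiment and the sorting gates are not given in the sources used here. A sort by DNA content alone can place a resting tetraploid cell and a diploid cell that has copied its DNA in the same 4c gate, and likewise for 8c. These were bulk samples, so more cells expressing a gene and more RNA per cell cannot be told apart.

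Cdk1 is the catalytic subunit and has no activity without a cyclin. Cyclin A2 partners it in late S and G2 phase, and cyclins B1 and B2 in mitosis. Wee1 holds the complex inactive by phosphorylating it, the Cdc25 phosphatases remove that phosphate, and Plk1 tips this balance towards mitosis. Foxm1, together with the MuvB complex, switches on many of these genes in G2 phase. Adult hepatocytes rarely divide, and they become polyploid when a cell copies its DNA and does not complete mitosis or cytokinesis.

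Levels are log2 intensities relative to the 75th percentile of the probes above background on every array, so 0 is that percentile and each step of 1 is a doubling of signal. A level can be compared between arrays for 1 probe and not between probes. The share of probes well above background, a flag of the scanner software, was 39.5% to 47.4% per array. Medians of 9 hepatocyte markers lay between 6.26 and 6.89 on the 15 arrays, with all 9 above background on each. Of the other liver cell types, the next 3 had their highest marker medians in 2c. The median level of 10 Kupffer cell markers had a middle value of -3.08 in 2c, -5.73 in 4c and -7.68 in 8c, with 8 to 9, 4 to 5 and 2 to 7 of them above background. Stellate cell markers had middle values of -4.07, -7.36 and -7.70, with 6 to 7, 1 to 6 and 1 to 5 of 10 above background. Sinusoidal endothelial markers had -4.54, -7.41 and -7.62, with 3 to 7, 0 to 2 and 0 to 5 of 7 above background. Of 7 lymphocyte markers 0 to 2 were above background, and of 6 cholangiocyte markers 2 on every array, with middle values of -7.52 in 2c, -7.44 in 4c and -7.60 in 8c. Pancreatic acinar transcripts were abundant on 6 arrays, all 3 of experiment 2 (medians 5.16 in 2c, 1.87 in 4c and 4.02 in 8c), 2c and 8c of experiment 1 (2.06 and -0.64) and 8c of experiment 3 (-0.88). On the other 9 arrays their median was -7.00 or lower.

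The 250 bases before the annotated start were taken for the 7 members matched by symbol in a RefSeq table of GRCr8, namely Cdk1, Ccnb1, Ccnb2, Cdc25b, Cdc25c, Plk1 and Cks2. Ccna2, Wee1 and Foxm1 were not matched. Promoters of mitotic genes often combine CCAAT boxes, bound by NF-Y, with a cell cycle genes homology region (CHR), bound by MuvB. Both strands were searched for CCAAT and for the CHR forms TTTGAA and TTCGAA, and no match overlapped another. The stretches of 6 members are shown. Genes that passed as higher in 8c can thus be set beside Cdc25b, which passed in no comparison. Of these genes, Cks2 passed against 4c and not against 2c. Cdc25c, which also passed in none, is described by its matches. The stretches are written 5′ to 3′ on the strand of the gene, with GRCr8 coordinates and the matches in capitals.
Cdk1, chr20:19265043-19265292, plus strand: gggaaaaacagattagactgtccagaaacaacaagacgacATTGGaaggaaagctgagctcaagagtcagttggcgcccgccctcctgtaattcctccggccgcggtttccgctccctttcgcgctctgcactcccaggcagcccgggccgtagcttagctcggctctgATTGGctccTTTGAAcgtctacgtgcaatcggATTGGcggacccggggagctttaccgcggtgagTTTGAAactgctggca
Ccnb1, chr2:33655226-33655475, minus strand: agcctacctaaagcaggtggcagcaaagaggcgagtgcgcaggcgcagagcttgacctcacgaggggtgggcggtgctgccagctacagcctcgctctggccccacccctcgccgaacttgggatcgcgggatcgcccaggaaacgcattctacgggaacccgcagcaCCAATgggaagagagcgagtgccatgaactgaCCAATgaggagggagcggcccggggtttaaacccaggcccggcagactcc
Ccnb2, chr8:79981659-79981908, minus strand: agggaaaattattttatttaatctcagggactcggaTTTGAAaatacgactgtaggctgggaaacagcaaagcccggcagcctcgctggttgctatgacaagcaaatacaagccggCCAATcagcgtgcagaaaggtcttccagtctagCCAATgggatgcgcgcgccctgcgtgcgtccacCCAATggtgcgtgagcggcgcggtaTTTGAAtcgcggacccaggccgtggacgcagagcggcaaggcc
Plk1, chr1:186147408-186147657, plus strand: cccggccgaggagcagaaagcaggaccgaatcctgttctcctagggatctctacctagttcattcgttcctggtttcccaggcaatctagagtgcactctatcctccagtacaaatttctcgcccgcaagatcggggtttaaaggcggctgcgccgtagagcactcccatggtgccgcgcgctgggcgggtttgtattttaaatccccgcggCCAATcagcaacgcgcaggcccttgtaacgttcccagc
Cks2, chr17:13727520-13727769, minus strand: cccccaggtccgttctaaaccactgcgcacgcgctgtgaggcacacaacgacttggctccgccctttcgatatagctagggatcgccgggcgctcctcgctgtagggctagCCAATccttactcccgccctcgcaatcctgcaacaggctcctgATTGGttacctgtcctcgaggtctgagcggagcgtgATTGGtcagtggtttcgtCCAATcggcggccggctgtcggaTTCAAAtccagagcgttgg
Cdc25b, chr3:138859923-138860172, plus strand: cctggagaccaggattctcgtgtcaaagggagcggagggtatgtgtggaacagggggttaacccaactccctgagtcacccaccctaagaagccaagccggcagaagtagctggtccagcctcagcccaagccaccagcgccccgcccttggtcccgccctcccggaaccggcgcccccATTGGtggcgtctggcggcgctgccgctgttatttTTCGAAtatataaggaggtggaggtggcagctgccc
A reverse-strand match appears as its reverse complement, ATTGG for CCAAT and TTCAAA for TTTGAA.

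All 7 windows held a CCAAT match, against 34.0% of 33469 windows of the same length, and 5 of 7 held at least 2, against 9.42%. A CHR match was present in 5 of 7 windows, against 17.4% of all windows. Cdk1 held a CHR match at -72 to -67 from its start and another at -16 to -11, with 3 CCAAT matches. Ccnb2 held CHR matches at -214 to -209 and -43 to -38, beside 3 CCAAT matches on the same strand. Cks2 held its CHR match at -19 to -14 on the reverse strand, with 4 CCAAT matches. Ccnb1 held 2 CCAAT matches and no CHR match in this window. The Plk1 window held 1 CCAAT match, and a TTTGAA lay past the annotated start, at 7 to 12. Cdc25b held TTCGAA at -36 to -31 and 1 CCAAT match. Cdc25c held a CHR match at -60 to -55 and 4 CCAAT matches, as many CCAAT matches as Cks2. These are matches of letters, and no binding was measured.

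**Figure D1:**
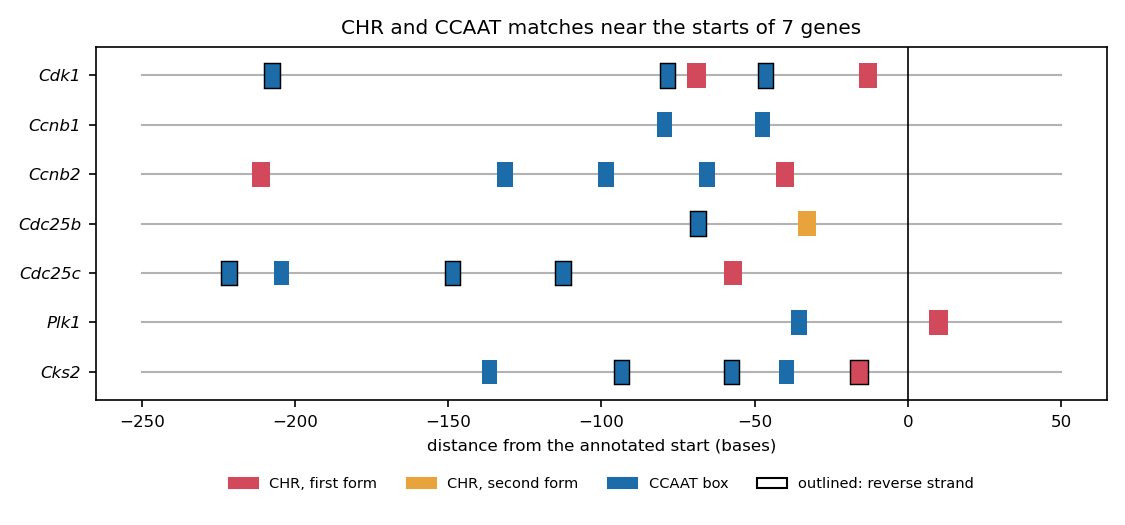
Position of each CHR match (red, TTTGAA; orange, TTCGAA) and each CCAAT match (blue) around the annotated start of 7 members, with distance in bases on the horizontal axis and reverse-strand matches outlined. The 50 bases right of the start were not part of the counts, and the Plk1 CHR match lies there; CCAAT matches stand left of the start in all 7 genes.

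The probes behind Cdk1 and the B cyclins are shown next, because these genes encode the mitotic kinase complex itself and Ccnb2 was read by 2 probes. Positions are those in the deposited files, on rn4. The Ccnb1 probe spans 240 bases of genome and the tested Ccnb2 probe spans 1033, both more than the 60 bases of a probe, so each crosses a splice junction.
Cdk1, chr20:20043755-20043814, plus strand: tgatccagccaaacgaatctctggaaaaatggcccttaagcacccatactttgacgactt
Ccnb1, chr2:31574809-31575048, minus strand: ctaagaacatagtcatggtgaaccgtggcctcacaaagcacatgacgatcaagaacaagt
Ccnb2, tested probe, chr8:74892410-74893442, minus strand: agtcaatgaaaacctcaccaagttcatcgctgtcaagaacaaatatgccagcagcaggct
Ccnb2, other probe, chr8:74896165-74896224, minus strand: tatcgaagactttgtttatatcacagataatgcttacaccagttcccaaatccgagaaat
The part of the gene under each probe is not stated, as no annotation of rn4 was at hand.

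Of the 10 members, 6 rose in 8c against 2c at an adjusted p under 0.05, namely Cdk1, the cyclins Ccnb1, Ccnb2 and Ccna2, Plk1 and Foxm1. None fell. Over all features 0.815% passed as higher and 1.55% as lower in this comparison. The median difference of the members was 1.89 on the log2 scale, beside -0.02 over all features. In 8c against 4c these 6 and Cks2 rose, 7 of 10, where 0.645% of all features passed as higher, 0.0117% as lower and 0.657% in either direction. The median difference was 2.17, beside 0.00441 over all features. All 10 members passed the filter of 5 arrays above background, but Ccnb1, Ccna2 and Cdc25c reached it only with their 8c arrays, so the counts and medians over the members are a description.

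**Figure D2:**
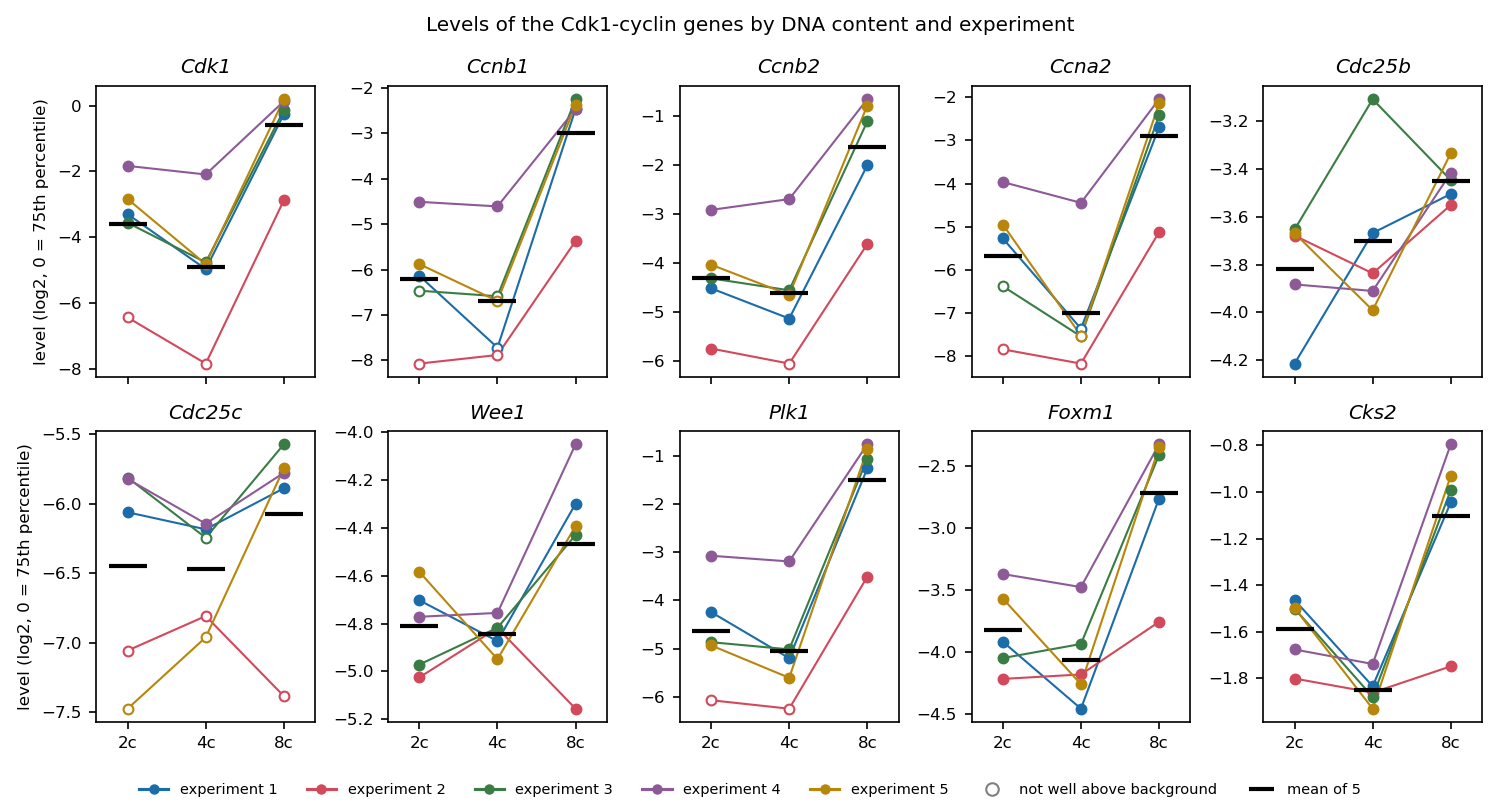
Level of each member (log2, 0 is the 75th percentile of the array's reference probes) in 2c, 4c and 8c, with a line per experiment and a black bar for the mean of 5. Open points were not well above background, and vertical scales differ between genes. Cdk1, the cyclins and Plk1 climb from 4c to 8c in every experiment, and the 8c array of experiment 2 (red) is the lowest 8c array for all 10 members.

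Cdk1, the kinase itself, was highest in 8c in each of the 5 experiments, and lowest in 4c in the 4 whose 2c and 4c arrays were above background. Its 8c levels in experiments 1 to 5 were -0.26, -2.88, -0.14, 0.13 and 0.19. In 2c they were -3.30, -6.44, -3.56, -1.83 and -2.84, and in 4c -4.97, -7.84, -4.76, -2.09 and -4.82. Experiment 2 was not well above background in 2c or in 4c. Experiment 2 was low in every fraction and experiment 4 was high in 2c and 4c, so the groups overlapped although 8c was highest within each experiment. In limma with the experiment as a block, Cdk1 was 8.01-fold higher in 8c than in 2c (log2 3.00, SE 0.34, adjusted p = 0.00251). Against 4c it was 19.7-fold higher (log2 4.30, SE 0.34, adjusted p = 0.000386). This fold includes the undetected 4c array of experiment 2, whose -7.84 lay under the lowest level above background on that array, -6.81. Cdk1 was read by 10 spots per array, whose SD on the log2 scale had a median of 0.0872. The 8c to 2c difference had an SD of 0.63 between experiments.

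Ccnb1 encodes cyclin B1, the main mitotic partner of Cdk1. Its 8c levels were -2.47, -5.37, -2.26, -2.48 and -2.38. Levels in 2c were -6.14, -8.07, -6.47, -4.51 and -5.88, with 3 of 5 arrays above background. In 4c they were -7.72, -7.88, -6.59, -4.61 and -6.69, and the array of experiment 4 alone was above background. Apart from experiment 2, each 8c array exceeded every 2c and 4c array. Ccnb1 was 9.33-fold higher in 8c than in 2c (log2 3.22, SE 0.40, adjusted p = 0.00352) and 13.1-fold higher than in 4c (log2 3.71, adjusted p = 0.00149). With dim arrays raised to their floor, the lowest level above background on that array, the differences were 2.98 and 3.40.

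Ccnb2 encodes cyclin B2, the other mitotic B-type cyclin. In 8c its levels were -2.01, -3.62, -1.11, -0.65 and -0.78, and in 2c -4.52, -5.75, -4.32, -2.92 and -4.04. The 4c levels were -5.14, -6.06, -4.56, -2.70 and -4.65. Each experiment had its highest level in 8c, and 3 of the 4 with 2c and 4c above background had their lowest in 4c. The difference of 8c from 2c was 6.39-fold (log2 2.68, SE 0.23, adjusted p = 0.00102) and that from 4c 7.93-fold (log2 2.99, adjusted p = 0.000386). The other Ccnb2 probe gave 3.00 ± 0.81 (SD, n = 5) for 8c minus 2c and was higher in 5 of 5 experiments. It was above background on 1 array of 2c, 1 of 4c and 4 of 8c.

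Ccna2 encodes cyclin A2, which acts earlier, from S phase to the start of mitosis. The 8c levels were -2.70, -5.13, -2.42, -2.04 and -2.14. In 2c they were -5.27, -7.85, -6.38, -3.97 and -4.95, and in 4c -7.37, -8.18, -7.55, -4.45 and -7.53. Only 3 of the 2c arrays and 1 of the 4c arrays were above background. In 5 of 5 experiments 8c was highest. Both 2c and 4c were above background in experiment 4 alone, where 4c was lower. In experiments 1 and 5, 2c was above background and 4c was not. Ccna2 was 6.95-fold higher in 8c than in 2c (log2 2.80, SE 0.42, adjusted p = 0.00782) and 17.5-fold higher than in 4c (log2 4.13, adjusted p = 0.00113), or 2.60 and 3.53 on the log2 scale with dim arrays at their floor. A second Ccna2 probe was above background on only 1 array, 8c of experiment 4, and its 8c minus 2c difference was 0.969 ± 0.494 (SD, n = 5).

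Cks2, a small subunit that helps the kinase hold its phosphorylated substrates, was above background on all 15 arrays. Its levels in 8c were -1.04, -1.75, -0.99, -0.80 and -0.93. In 2c they were -1.46, -1.80, -1.50, -1.68 and -1.50, and in 4c -1.83, -1.86, -1.88, -1.74 and -1.93. Apart from experiment 2, each 8c array exceeded every other array. The difference from 4c passed, at 1.68-fold (log2 0.75, SE 0.13, adjusted p = 0.0264), and that from 2c did not, at 1.4-fold (log2 0.49, SE 0.13, adjusted p = 0.0840). A second probe, also above background on all arrays, gave 0.50 ± 0.30 (SD, n = 5) for 8c minus 2c. The limma call against 4c was lost when experiment 1, 3, 4 or 5 was left out (adjusted p from 0.139 to 0.25). Against 2c Cks2 passed in limma once experiment 2 was left out (adjusted p = 0.0252).

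**Figure D3:**
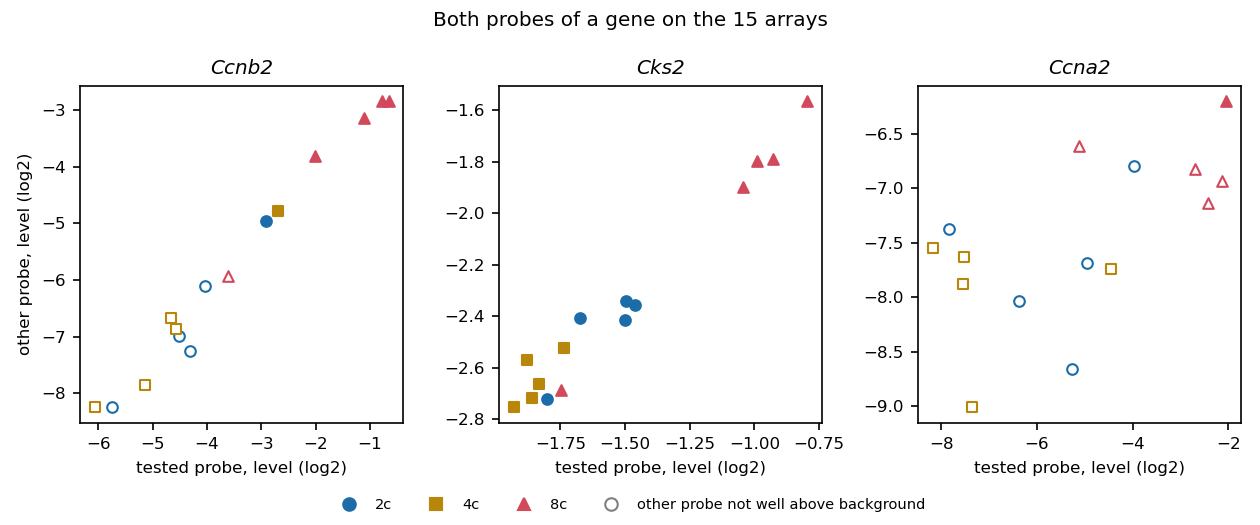
Level of the tested probe (horizontal, log2) against the other probe of the same gene (vertical, log2) on the 15 arrays for Ccnb2, Cks2 and Ccna2, by fraction; open symbols mark arrays on which the other probe was not well above background. For Ccnb2 and Cks2 the 8c arrays other than experiment 2 stand highest on both probes, while the other Ccna2 probe is above background on 1 array.

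Plk1, the polo-like kinase that promotes mitotic entry, rose in 8c against both 2c and 4c. Its 8c levels were -1.26, -3.51, -1.06, -0.76 and -0.86. The 2c levels were -4.24, -6.07, -4.87, -3.07 and -4.93, and the 4c levels -5.20, -6.25, -5.02, -3.19 and -5.61. Every experiment had 8c highest, and 4c was lowest in the 4 with 2c and 4c above background. Plk1 was 8.86-fold higher in 8c than in 2c (log2 3.15, SE 0.30, adjusted p = 0.00102) and 11.8-fold higher than in 4c (log2 3.56, adjusted p = 0.000486). It was read by 10 spots per array, with a median spot SD of 0.111.

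Wee1, the kinase that inhibits Cdk1, was above background on all 15 arrays at levels between -5.16 and -4.05. Its 8c levels were -4.30, -5.16, -4.43, -4.05 and -4.39. Those in 2c were -4.70, -5.02, -4.97, -4.77 and -4.58, and those in 4c ran from -4.95 to -4.76. In experiment 2 the 8c array was the lowest of the 3, and in the other 4 experiments it was the highest. The difference of 8c from 2c was 0.34 (SE 0.14, adjusted p = 0.285) and did not pass. A second probe was not above background on any array.

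Cdc25b, a phosphatase that acts early in Cdk1 activation, was also above background on every array. Its levels ran from -4.21 to -3.65 in 2c, from -3.99 to -3.11 in 4c and from -3.55 to -3.33 in 8c. The 8c minus 2c difference was positive in 5 of 5 experiments, at 0.37 (SE 0.15, adjusted p = 0.271), and did not pass.

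Cdc25c, the phosphatase that acts on the cyclin B complex at mitotic entry, was near the limit of detection. It was above background on 2 of the 2c arrays, 2 of the 4c arrays and 4 of the 8c arrays, with levels from -7.48 to -5.57. Its 8c minus 2c difference was 0.37 (SE 0.26, adjusted p = 0.555), with 1.73 in experiment 5 and between -0.33 and 0.24 in the others. A second probe was not above background on any array. Wee1, Cdc25b and Cdc25c passed in none of the comparisons, which does not show that they were equal between fractions.

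Foxm1, the transcription factor of the set, was above background on all arrays with its tested probe. Its 8c levels were -2.76, -3.76, -2.41, -2.33 and -2.35. In 2c they were -3.92, -4.22, -4.05, -3.37 and -3.57, and in 4c -4.46, -4.18, -3.94, -3.48 and -4.26. The 8c array was the highest of its experiment in 5 of 5, by 0.42 over 4c in experiment 2 and by 1.15 to 1.91 in the rest. Foxm1 was 2.15-fold higher in 8c than in 2c (log2 1.105, SE 0.19, adjusted p = 0.0155) and 2.54-fold higher than in 4c (log2 1.34, adjusted p = 0.00974). The limma call against 2c was lost without experiment 1, 3, 4 or 5 (adjusted p from 0.0714 to 0.0827), and so was that against 4c (adjusted p from 0.0708 to 0.11). A second Foxm1 probe was above background on 1 array only, 2c of experiment 5.

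**Figure D4:**
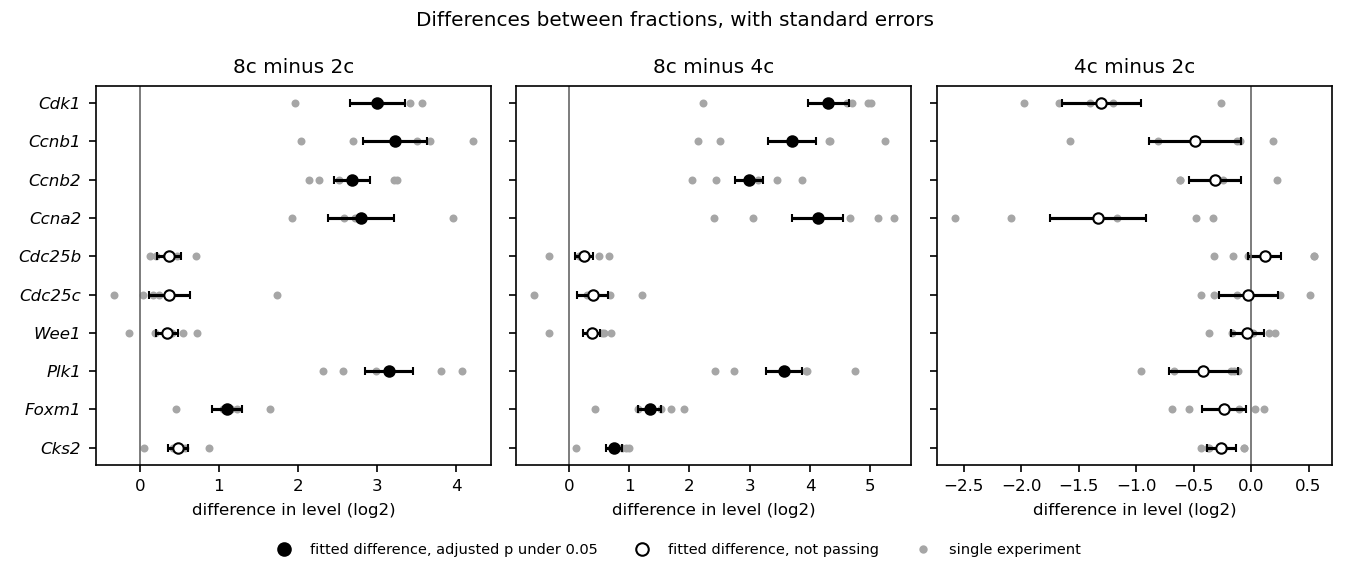
Fitted difference in level (log2) of each member between fractions, with its standard error; filled symbols passed at an adjusted p under 0.05 and grey points are single experiments. Differences of 8c from 2c and from 4c lie far right of 0 for Cdk1, the cyclins and Plk1, and no member passed in 4c minus 2c; horizontal scales differ.

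The sizes depended on the background correction. With normexp at an offset of 50, Cdk1 differed by 1.86 on the log2 scale between 8c and 2c, Ccnb1 by 0.93, Ccnb2 by 1.43, Ccna2 by 0.93 and Plk1 by 1.56, and these 5 still passed. Foxm1, at 0.46, did not (limma adjusted p = 0.0761). The arrays lay on slides 1 and 2, and experiment 3 alone was divided between them. Its 8c array was on slide 2 and its others on slide 1, so its 8c differences include any slide effect. Without experiment 3, 5 members passed in limma against 2c, at differences from 2.51 (Ccna2) to 2.98 (Plk1). Foxm1, at 0.97, did not. With the slide as a block in place of the experiment, Cdk1 and Ccna2 missed the threshold against 2c, at differences of 2.59 and 2.43. Against 4c, Cdk1 and Cks2 missed it. Without the 6 arrays that carried acinar transcripts, 9 arrays were left, and no feature passed in limma in any comparison, while 8 of 10 members and 3.06% of all features were higher in 8c than in 2c at an unadjusted p under 0.05. Among these 9 arrays the 8c fraction was left with experiments 4 and 5 alone. The differences of 8c from 2c there were 2.48 for Cdk1, 2.83 for Ccnb1, 2.75 for Ccnb2, 2.43 for Ccna2, 3.23 for Plk1 and 1.22 for Foxm1. Markers of Kupffer, stellate and endothelial cells moved the other way, higher in 2c than in 8c, and their part in the result was not tested.

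The 4c fraction held the lowest level of Cks2 in 5 of 5 experiments with the tested probe, and that of Cdk1 and Plk1 in the 4 with 2c and 4c above background. On the second Cks2 probe 4c was above 2c in 1 of 5, experiment 2 (-2.715 and -2.721). In 4c against 2c no member passed in limma, and 2 of 10 had an unadjusted p under 0.05, beside 2712 of all 17055 features (15.9%). Of all features 0.264% passed as higher and 1% as lower. Cdk1 differed by -1.30 (SE 0.34, limma adjusted p = 0.109) and Ccna2 by -1.33 (SE 0.42, limma adjusted p = 0.163). With dim arrays at their floor these values were -1.10 and -0.94, and with normexp -0.50 and -0.32. Cdk1 passed in limma without experiment 4 (-1.56, adjusted p = 0.0126). Plk1 differed by -0.41 and Cks2 by -0.26. Of the 10 members 9 had a negative difference, Cdc25b being the exception at 0.12, and the median was -0.29 beside -0.03 over all features. Medians of the non-parenchymal markers were also lower in 4c than in 2c (-5.73 and -3.08 for Kupffer cell markers), and their part in these differences was not tested.

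Set against the mean of 2c and 8c, 4c was lower for 5 of 10 members, Cdk1 (-2.80), Ccna2 (-2.73), Ccnb1 (-2.10), Plk1 (-1.99) and Ccnb2 (-1.65), with limma adjusted p from 0.0103 to 0.0337. Over all features 0.387% passed as lower and 0.0176% as higher. The difference was negative in every experiment for these 5 genes. This comparison shares its arrays with those above, and a 4c level equal to 2c is negative here wherever 8c is higher. None of the 5 passed in 4c against 2c, where Plk1, Ccnb1 and Ccnb2 differed by -0.41, -0.48 and -0.31. The calls therefore do not show 4c to be below 2c. In the comparison with the mean, no member passed without experiment 1, 3 or 5. With dim arrays at their floor 3 members passed, and Ccnb1 and Ccna2 did not.

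The 8c difference was also compared between ages. In experiments 1 and 2, at 12 and 14 weeks, Cdk1 differed by 3.30 between 8c and 2c, and in the 3 younger ones by 2.81. For Foxm1 the values were 0.81 and 1.30, and for Cks2 0.24 and 0.65. The interaction of fraction with age passed in limma for 0 of 10 members, with 0 of 10 at an unadjusted p under 0.05. Over all features 0 passed, with 798 at an unadjusted p under 0.05. Acinar transcripts were abundant on 5 of the 6 arrays of experiments 1 and 2. All 6 lay on slide 1, with only the 2c and 4c arrays of experiment 3 from the younger rats. Age, slide and these transcripts cannot be told apart.

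Of 26 other regulators and partners of Cdk1, 22 were tested, and 2 rose in 8c against 2c while none fell. These were Bora, the Aurora A cofactor that activates Plk1, at 1.72-fold (log2 0.79, SE 0.15, adjusted p = 0.0253), and Cdkn1a, the p21 inhibitor, at 1.69-fold (log2 0.76, SE 0.14, adjusted p = 0.0239). Without the filter on dim probes neither passed in limma (adjusted p = 0.0759 and 0.0731), and nor did any other gene of the list. The median of the list was 0.05, beside -0.02 over all features. In 8c against 4c 3 of 22 rose, which were Bora, Pkmyt1 and Mastl, named here after their values were seen, and 2 passed without the filter. Pkmyt1, the membrane-bound relative of Wee1, was 2.36-fold higher (limma adjusted p = 0.00217). Mastl, the Greatwall kinase, was above background on no 4c array. Its measured means were -5.60 in 8c and -8.19 in 4c (limma adjusted p = 0.0153). With the dim 4c arrays at their floor it was 2.83-fold higher in 8c, which is not a strict lower bound, as an undetected probe can read above the floor. Mastl was above background on 1 array of 2c and 4 of 8c, so it reached the filter only with 8c. In 4c against 2c none of the 22 passed.

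Of 19 transcription factors of G2/M genes 15 were tested, and none passed in 8c against 2c, 4c against 2c or 8c against 4c. The brightest, Rbbp4, a MuvB subunit, differed by -0.09 between 8c and 2c (SE 0.06, limma adjusted p = 0.597). Mybl2, the B-Myb factor that joins MuvB, is added after its values were seen. Its tested probe was above background on 5 of 5 arrays of 8c and on 0 of the 10 others. It reached the filter through 8c alone and did not pass against 4c (means -5.72 in 8c and -7.30 in 4c, limma adjusted p = 0.103).

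Mitotic genes known to be driven by Foxm1 and MuvB formed the next list. It was chosen with earlier results of these data known, so its counts are a description. Of 27 listed 20 were tested, and 17 rose in 8c against 2c and 16 in 8c against 4c, with none lower. The list medians were 1.83 and 2.16, beside -0.02 and 0.00441 over all features. Only 12 of the 20 would have passed the filter without their 8c arrays. Without any filter on dim probes, 15 of the 26 genes on the array rose against 2c and 16 against 4c. The fitted differences of 8c from 2c were largest for Ube2c, which marks cyclins for destruction (log2 3.40), the cytokinesis regulators Ect2 (3.15) and Prc1 (3.05), and the kinesin Kif20a (3.01). Ube2c was above background on 1 array of 2c and Ect2 and Prc1 on 2 each, and these 3 reached the filter only with their 8c arrays. With dim arrays at their floor the differences were 3.28, 2.86, 2.85 and 3.01. Without the filter Ube2c did not pass (limma adjusted p = 0.0531). The 3 that did not pass, named after their values were seen, were Aurkb, Cenpa and Mad2l1, at log2 differences of 0.27, 0.27 and 1.24. Without experiment 5 or with normexp, 10 of the 20 passed against 2c, and with the slide as a block 8. In 4c against 2c none of the 20 passed, with a median of -0.25.

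Of 36 genes of the G1 to S transition 28 were tested, and in 8c against 2c 3 rose and 1 fell. Rrm2, a subunit of the enzyme that makes deoxynucleotides, was 6.84-fold higher (limma adjusted p = 0.00431). Thymidine kinase Tk1 was 1.76-fold and DNA ligase Lig1 1.27-fold higher, while the replication licensing factor Mcm2 fell by 0.71 on the log2 scale (limma adjusted p = 0.0155). The list median was -0.12. Against 4c, 6 of 28 rose and none fell. Without the filter on dim probes, Rrm2 alone passed against 2c, 3 genes rose against 4c, and none passed in 4c against 2c. In 4c against 2c 4 fell and none rose, and these, named after their values were seen except Mcm2, were Mcm3 (-1.28), Mcm5 (-1.11), Ccne1, which encodes cyclin E1 (-0.94), and Mcm2 (-0.64). With 1 experiment left out at a time, 0 or 1 of these passed in 4c against 2c, and none with quantile normalization or normexp, and the part of the non-parenchymal markers in them was not tested.

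Likeness of pattern was measured as Pearson's r with the mean of the 7 standardised members above background on at least 10 arrays, over 15 arrays after each experiment's mean was removed. Outside the set, Hmgb2 (0.994), Pttg1 (0.991), Kif23 (0.985), Tacc3 (0.978), Ect2 (0.976), Mdc1 (0.976), Racgap1 (0.974) and Cdc20 (0.971) were most alike. These values of r do not measure size. On the log2 scale, differences of 8c from 2c among these genes ran from 0.37 for Mdc1 to 3.15 for Ect2. Kif23 was above background on 0, 1 and 4 arrays of 2c, 4c and 8c and Ect2 on 2, 1 and 5, so their r rests largely on undetected arrays. The other 6 were above background on all 15. Among the members r was 0.985 for Foxm1, 0.969 for Ccnb2, 0.968 for Plk1, 0.938 for Cks2 and 0.915 for Cdk1. Wee1 reached 0.85 and Cdc25b 0.668. Of the members outside the mean, Ccnb1 had 0.953, Ccna2 0.942 and Cdc25c 0.557, each not above background on most 2c and 4c arrays. The arrays share fractions and slides, and each of the 7 genes in the mean is in part compared with itself.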

How the data were processed

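Total RNA of sorted cells was labelled with Cy3 and hybridised to 1-colour Agilent arrays. Per the file headers, the authors' deposited files hold spot intensity on a linear scale from Feature Extraction 11.5.1.1, while the submitters' processing notes name 10.7.3.1. The processed intensity is background-subtracted, with no normalization between arrays, and the deposited value table holds the same values. Of 62976 spots, 4259 controls and 264 to 539 outliers per array were left out. No spot was saturated, and having 1 array per sample limits precision. Spots of a probe were averaged on the log2 scale. Each array's 75th percentile over the 16211 probes above background on all arrays was subtracted. A feature was tested if above background on at least 5 arrays, and the brightest probe stood for a gene. limma 3.58.1 in R 4.3.3 fitted fraction with experiment as a block, two-sided, with Benjamini-Hochberg adjustment over 17055 features. The code was tested on simulated data. Deviations from fraction means correlated within experiments at a median of 0.585 over 15 pairs, and across experiments at -0.13. The pairing comes from the stated design of 5 independent experiments. Besides all members, the genes named were up to 4 per list that passed in 8c against 2c with the largest difference, the brightest where none passed, and the 8 most alike in pattern; others are marked as named after their values were seen. Members and lists were chosen with earlier results of these data known. Alternatives covered scaling, background, filter, probe choice, blocks, left-out arrays and age as a number.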

Additional observations from a re-analysis of the deposited data

Results flagged for a closer look

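Among the 30 combinations of a member and a fraction, 7 held an experiment far from the other 4 by Dixon's criterion. Chance alone meets this criterion in about 1 in 20 groups, but the members share arrays, so that rate does not apply to the count. Of the 7, 6 were the 8c array of experiment 2, the low one each time: Cdk1 at -2.88, Ccnb1 at -5.37, Ccna2 at -5.13, Cdc25c at -7.39, Plk1 at -3.51 and Cks2 at -1.75. On that array Cdc25c was not well above background. That array also carried acinar transcripts at a median of 4.02, and their part in these values was not tested. In 4c, Ccna2 was high in experiment 4, at -4.45, the only 4c array on which it was above background.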

How the results depend on the processing

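Cdk1, Ccnb1, Ccnb2, Ccna2, Plk1, Foxm1 and Cks2 kept a positive difference of 8c from 2c and from 4c under every alternative in which they were tested, while the number of members passing changed. Of 10 members, 6 passed in 8c against 2c, 0 in 4c against 2c, 7 in 8c against 4c and 5 as lower in 4c against the mean of 2c and 8c. With 1 experiment left out at a time these counts ran from 5 to 7, from 0 to 1, from 5 to 7 and from 0 to 6. Without the replicate block 0 members passed in limma in any comparison, with 8, 0, 8 and 7 at an unadjusted p under 0.05, beside 2.27%, 4%, 1.76% and 2.73% of all features in the same direction. Within slide 1 the counts were 0, 0, 1 and 1, and within slide 2, without the acinar arrays or without experiments 1 and 2 they were 0 throughout, with fewer arrays in each fit and 8, 8 and 8 members higher in 8c against 2c at an unadjusted p under 0.05, beside 3.27%, 3.06% and 3.43% of all features. Requiring all 15 arrays above background left 4 members, of which 1, 0, 2 and 0 passed. For 4c against the mean, 1 passed with normexp, 0 with the slide as block and 3 with dim arrays at their floor. The cause was not tested beyond the arrays or genes removed. Over all features, 139 higher and 264 lower calls in 8c against 2c became 225 and 191 with the percentile over all probes, 188 and 215 with median scaling, 179 and 201 with quantile normalization, 74 and 154 with no filter, 65 and 116 with normexp, 6 and 34 without the replicate block, 26 and 71 with the slide as block, and from 49 to 115 and from 52 to 191 with 1 experiment left out, fewest without experiment 5. In 4c against 2c, 45 and 171 became 70 and 108, 54 and 123, 44 and 100, 0 and 0, 7 and 47, 0 and 3, 1 and 4, and from 0 to 62 and from 3 to 132, in the same order. The 110 higher in 8c against 4c became 63 with normexp, 73 with no filter, 41 with the slide as block and from 51 to 123 with 1 experiment left out, and the 66 lower in 4c against the mean 7, 25, 0 and from 0 to 69. With age in weeks as a number, 0 members again passed for a dependence of 8c against 2c on age.

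Sign changes occurred only in Cdc25b, Cdc25c and Wee1, none of which passed. In 8c against 2c, Cdc25c was -0.13 with normexp and -0.16 within slide 1, and Wee1 -0.015 with normexp. In 8c against 4c, Cdc25c was -0.058 within slide 1. In 4c against 2c, Cdc25b was -0.040 with normexp and -0.18 within slide 2. There Cdc25c was 0.21 with quantile normalization, 0.0080 with median scaling, 0.045 with the percentile over all probes, 0.096 within slide 2, and up to 0.079 with 1 experiment left out (0.0017 without experiment 1, 0.052 without experiment 4). Wee1 was 0.082 with quantile normalization, 0.036 with the percentile over all probes, 0.063 within slide 1, and from -0.091 to 0.051 with 1 experiment left out (0.0029 without experiment 1). In 4c against the mean, Cdc25b was 0.073 within slide 1 and from -0.20 to 0.038 with 1 experiment left out, the latter without experiment 5. Signals near background limit Cdc25c, and Ccnb1 and Ccna2 outside 8c.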
